A study of Mus musculus with 4 samples.

Results

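The 10 genes described here encode secreted factors through which tumour cells are known to call and feed myeloid cells: the colony-stimulating factors Csf1, Csf2 and Csf3, the CXC chemokines Cxcl1, Cxcl2, Cxcl5 and Cxcl16, the CC chemokines Ccl2 and Ccl20, and the cytokine Tslp. They were chosen by symbol, as every probe set that the array annotation pairs with just one of these names, which gave 16 of the 34945 probe sets with a single symbol. All 10 genes and all 16 probe sets lay above the level below which probe sets were not tested. The study measured total RNA of 4T1, a mouse mammary carcinoma cell line, on one-colour Affymetrix arrays, with 2 samples labelled CD44v8-10-positive and 2 labelled CD44v8-10-negative. CD44v8-10 is a form of the adhesion receptor CD44 that carries variant exons. Cells of either group grew in RPMI 1640 medium with serum at normal oxygen and were picked by hand under a dissecting microscope; no other treatment or genetic change is named. The labels do not say how CD44v8-10 was scored or whether the 2 samples of a group came from separate cultures, so each p-value reflects only how these 4 arrays scatter, and that scatter may be technical. In such bulk RNA, fewer cells making a transcript and less transcript per cell cannot be told apart.

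As background, colony-stimulating factors drive the production, survival and activation of myeloid cells: Csf1 acts on macrophages through Csf1r, Csf2 on granulocytes, macrophages and dendritic cells, and Csf3 on neutrophils. Cxcl1, Cxcl2 and Cxcl5 attract neutrophils through the receptor Cxcr2, Ccl2 attracts monocytes through Ccr2, Ccl20 acts through Ccr6, and Cxcl16, made as a membrane-bound chemokine, acts through Cxcr6. Tslp is an epithelial cytokine that acts on dendritic cells through Crlf2 paired with Il7r. Many of these genes are induced by inflammatory signals through NF-κB. The 4T1 tumour is known for raising neutrophil numbers in its host, an effect linked to Csf3.

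Promoter sequences from RefSeq (build GRCm38.p6) were at hand for Csf1, Csf2, Cxcl1, Cxcl2 and Ccl20, 5 of the 10 genes. The 250 bases before the start site are printed for 2 pairs, picked after their signals were seen. Cxcl1 and Cxcl2 are next to each other in the order of coding genes and were both highest in positive replicate 1, as 7 of the 10 genes were. Csf2 and Ccl20 were both highest in positive replicate 1 and negative replicate 2. Each is written 5′ to 3′ on its gene's strand, ending at the base before the start site, and capitals mark matches to the letters GGANNTTCC, an NF-κB-type motif searched on both strands, with a match on both counted once.
Cxcl1, chr5:90890995-90891244, plus strand: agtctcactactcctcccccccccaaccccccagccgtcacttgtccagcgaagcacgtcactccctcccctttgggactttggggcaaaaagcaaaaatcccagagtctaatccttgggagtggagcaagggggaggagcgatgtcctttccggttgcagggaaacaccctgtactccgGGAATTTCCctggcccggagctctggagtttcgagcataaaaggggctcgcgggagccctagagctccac
Cxcl2, chr5:90903649-90903898, plus strand: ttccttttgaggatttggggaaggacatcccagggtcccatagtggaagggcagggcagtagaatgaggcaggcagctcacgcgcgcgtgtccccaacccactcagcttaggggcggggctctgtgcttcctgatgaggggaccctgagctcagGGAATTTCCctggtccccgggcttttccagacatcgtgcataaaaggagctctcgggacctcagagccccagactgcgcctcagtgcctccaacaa
Csf2, chr11:54249900-54250149, minus strand: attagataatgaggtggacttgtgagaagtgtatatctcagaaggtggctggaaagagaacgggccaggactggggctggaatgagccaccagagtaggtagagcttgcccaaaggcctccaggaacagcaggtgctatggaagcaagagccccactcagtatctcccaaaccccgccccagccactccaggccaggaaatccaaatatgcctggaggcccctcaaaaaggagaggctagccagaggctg
Ccl20, chr1:83116516-83116765, plus strand: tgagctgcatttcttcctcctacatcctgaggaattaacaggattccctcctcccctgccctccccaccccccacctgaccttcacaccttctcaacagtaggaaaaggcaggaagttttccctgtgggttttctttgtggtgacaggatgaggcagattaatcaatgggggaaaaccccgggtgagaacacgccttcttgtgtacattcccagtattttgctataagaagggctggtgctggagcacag
Cxcl1 and Cxcl2 held the same match, GGAATTTCC, which began 70 bases before the start site in Cxcl1 and 96 bases before it in Cxcl2. It lay in a run of 14 bases that both promoters share, gggaatttccctgg. Csf1 had a match as well, GGAAAGTCC, beginning 154 bases before its start. The letters were in neither Csf2 nor Ccl20 in this window. Forms of the NF-κB motif other than these letters were not searched, so no match does not mean no site. Of 32851 promoters cut to the same length, 3.59% held a match. The AP-1-type letters TGANTCA were in none of these 5 promoters, against 6.75% of all promoters. Any link between these motifs and the signals was not tested.

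The 4 arrays were unequally bright as deposited, with trimmed mean intensities from 196 to 345, and were brought to a common distribution by quantile normalization. The values below are these normalized signals, and differences are on the scale of log2(signal + 16), positive minus negative. After normalization, Pearson correlations between arrays over 11956 genes ran from 0.968 to 0.985, and those within a group were 0.972 and 0.981. The 6 epithelial markers checked, Epcam, Krt8, Krt18, Krt19, Krt14 and Cdh1, were all above the filter level of 19.4. All 6 also lay above 0 in the group difference, against 54.3% of all genes, with a median of 0.42. Krt14 (1.97 ± 0.24, adjusted p 0.00547 by limma) and Epcam (1.34 ± 0.18, adjusted p 0.0118) were called higher in the positive cells. With no scaling between arrays neither was called. Epcam, Krt14 and Krt19, or 3 of 6 against 18.5% of all genes, were higher without overlap, as Tslp and Cxcl16 were. Krt8 (0.06 ± 0.13), Krt18 (0.08 ± 0.13) and Cdh1 (0.28 ± 0.22) overlapped between the groups. What part the epithelial markers had in the differences of Tslp and Cxcl16 was not tested. Markers of blood cells were mostly dim: 1 of 9 neutrophil and 1 of 7 lymphocyte markers passed the filter, and of 12 macrophage markers 7 passed, with the pan-leukocyte gene Ptprc and the myeloid integrin Itgam among the 5 that did not. The neutrophil marker that passed, Ngp, gave 33.6 and 64.2 in positive against 9.85 and 21.0 in negative arrays (log2 fold change 1.03 ± 0.41). Its negative mean of 15.4 lay below the filter level, so this order is partly set by the filter. The lymphocyte marker, Cd8a, overlapped between the groups (-0.06 ± 0.43).

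After Benjamini-Hochberg adjustment over 11956 genes, 0 of the 10 had a two-sided limma p under 0.05, a threshold that 0.0753% of all genes passed. Under that test the 9 genes called were all higher, while with arrays centred on their medians 20 were higher and 5 lower, again with none of the 10 among them. At an unadjusted p under 0.05, Tslp and Cxcl16 were higher in the CD44v8-10-positive cells, 2 of 10 against 2.68% of all genes, and 0 of 10 were lower, against 1.76%. The group difference lay above 0 in 6 of 10 genes, against 54.3% of all genes, and the median was 0.31, where that of all genes was 0.03. Without overlap, the positive pair exceeded the negative pair in Tslp, Cxcl16 and Cxcl1, or 3 of 10 against 18.5%. It lay below that pair in Csf1, or 1 of 10 against 13.8%. Cxcl16 kept this order under all 4 scalings, Tslp lost it with no scaling, and Cxcl1 had it after quantile normalization only. Csf1 lost its lower order with median centring and with no scaling, and Cxcl2 had the higher order with a common trimmed mean and with no scaling. With no scaling between arrays the median of all genes moved to -0.15, with 28.2% of all genes above 0, and that of the 10 genes moved to 0.11.

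**Figure D1:**
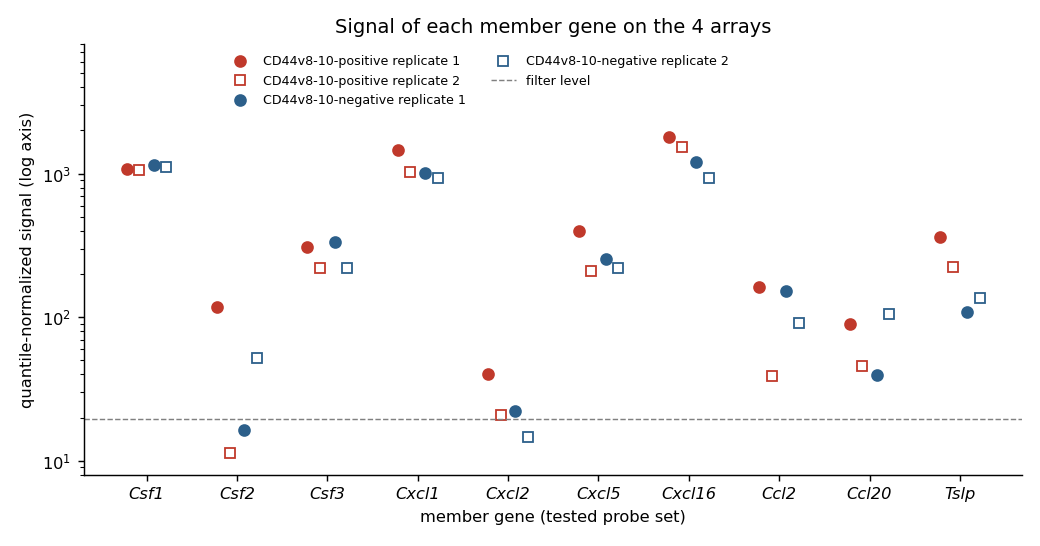
Quantile-normalized signal of the tested probe set of each of the 10 genes on a log axis, 1 point per array, with red for the CD44v8-10-positive and blue for the CD44v8-10-negative arrays, filled circles for replicate 1 and open squares for replicate 2. The dashed line is the filter level of 19.4. Tslp and Cxcl16 have both red points above both blue points, and the red points of Csf2 lie at 119 and 11.3.

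Among the colony-stimulating factors, Csf1 differed least between arrays. Its tested probe set gave 1075 and 1065 in positive against 1157 and 1107 in negative arrays. The positive pair lay just below the negative pair. On the log2 scale the difference was -0.08 ± 0.19 (SE), with a 95% interval from -0.49 to 0.33 (limma adjusted p 0.990). Its 3 other probe sets gave 0.15, 0.06 and -0.14, so the sign was not shared among the probe sets of this gene. For Csf3, the neutrophil growth factor, signals were 308 and 221 in positive against 337 and 221 in negative arrays. In either group replicate 1 was higher than replicate 2, and the groups overlapped. This was a log2 fold change of -0.06 ± 0.26, with an interval from -0.63 to 0.51 (limma adjusted p 0.993).

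Csf2 had the widest range over arrays of the 10 genes. Its signals were 119 and 11.3 in the positive arrays and 16.4 and 52.4 in the negative arrays, and the highest was 10.5 times the lowest. Positive replicate 1 and negative replicate 2 were high, while positive replicate 2 and negative replicate 1 lay below the filter level, so the groups overlapped fully. The mean signals of 65.0 ± 76.0 (positive) and 34.4 ± 25.4 (negative; SD, n = 2 each) therefore say little about the groups. The fitted difference was 0.37 ± 0.62, with an interval from -0.98 to 1.71 (limma adjusted p 0.985). Without positive replicate 1 it was -0.80, and without positive replicate 2 it was 1.57.

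The neutrophil-attracting chemokines Cxcl1, Cxcl2 and Cxcl5 each had their highest signal in positive replicate 1. Cxcl1 gave 1465 and 1028 in positive against 1011 and 935 in negative arrays. The groups did not overlap, but positive replicate 2 was close to negative replicate 1. The log2 fold change of Cxcl1 was 0.33 ± 0.21, with an interval from -0.14 to 0.80 (limma adjusted p 0.985), and without positive replicate 1 it was 0.08. Its probe set ending in _s_at gave 0.36 and that ending in _x_at 0.11, the latter with overlapping groups; these suffixes mark less specific probe sets.

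Cxcl2 was dim, with signals of 39.96 and 20.9 in positive against 22.3 and 14.8 in negative arrays, around the filter level of 19.4. Its negative mean of 18.5 lay below that level, which it passed through its positive arrays. Positive replicate 1 stood above the other arrays, which overlapped. The difference of 0.40 ± 0.42 on the log2 scale, with bounds of -0.50 and 1.31 (adjusted p 0.985 by limma), was measured close to the filter level and is no exact size. Cxcl5 gave 402 and 209 in positive against 253 and 219 in negative arrays. Positive replicate 1 was again the highest, and positive replicate 2 was the lowest of the 4. The log2 fold change was 0.28 ± 0.29, with an interval from -0.34 to 0.91 (limma adjusted p 0.985), and -0.16 without positive replicate 1.

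Cxcl16, the membrane-bound chemokine, gave 1798 and 1534 in the positive arrays and 1215 and 935 in the negative arrays. Both positive arrays were above both negative arrays, and the gap between the groups was wider than that between the positive arrays. The means were 1666 ± 186 and 1075 ± 198 (SD, n = 2 each), a fitted difference of 1.55-fold. On the log2 scale the difference was 0.63 ± 0.20, with an interval from 0.19 to 1.07 (limma unadjusted p 0.00860, adjusted p 0.919). A second probe set of Cxcl16 gave 1192 and 1130 in positive against 815 and 725 in negative arrays, a difference of 0.58 ± 0.20 on the log2 scale (adjusted p 0.959 by limma over 27022 probe sets). The 2 probe sets measure the same RNA samples, so they are not independent replicates. Over the alternatives the value ran from 0.43 (no scaling between arrays) to 0.81, always above 0. Its unadjusted limma p was above 0.05 with median centring (0.0883), with no scaling (0.415), without positive replicate 1 (0.0700) and without negative replicate 2 (0.0756). The sheddases that can release it from the membrane had log2 fold changes of -0.22 (Adam10) and 0.09 (Adam17, at -0.03 under median centring and -0.11 with no scaling), and neither was called.

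The CC chemokines were not higher in the positive cells under any of the 4 scalings. Ccl2, the monocyte attractant, gave 164 and 38.8 in positive against 153 and 91.3 in negative arrays. Replicate 1 was the higher in either group, positive replicate 2 was the lowest of all, and the groups overlapped. This was a log2 fold change of -0.44 ± 0.45, with an interval from -1.42 to 0.54 (limma adjusted p 0.985). Without positive replicate 1 it was -1.30 (limma unadjusted p 0.00473, adjusted p 0.274), and without positive replicate 2 it was 0.42. Ccl20 gave 89.1 and 45.9 in positive against 39.5 and 105 in negative arrays. As in Csf2, positive replicate 1 and negative replicate 2 were the high arrays. The log2 fold change of Ccl20 was -0.02 ± 0.40, with an interval from -0.89 to 0.84 (limma adjusted p 0.996).

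Tslp had the largest group difference of the 10 genes. Its signals were 363 and 226 in the positive arrays and 110 and 136 in the negative arrays, so both positive arrays were above both negative ones. The means were 294 ± 97.0 and 123 ± 18.7 (SD, n = 2 each), a fitted difference of 2.19-fold. In log2 units this was 1.13 ± 0.27, with an interval from 0.55 to 1.71 (limma unadjusted p 0.00112, adjusted p 0.399), the 57th highest of 11956 genes. Tslp is covered by 1 probe set. As deposited, before normalization, the intensities were 331 and 199 in positive against 82.3 and 200 in negative arrays, so positive replicate 2 and negative replicate 2 were level. Negative replicate 2 was also the brightest array as a whole. The value ran from 0.80 (without positive replicate 1) to 1.46 (without positive replicate 2) over the alternatives, with limma adjusted p from 0.105 to 1.00. Its unadjusted p was 0.133 with no scaling and below 0.05 in the other alternatives.

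**Figure D2:**
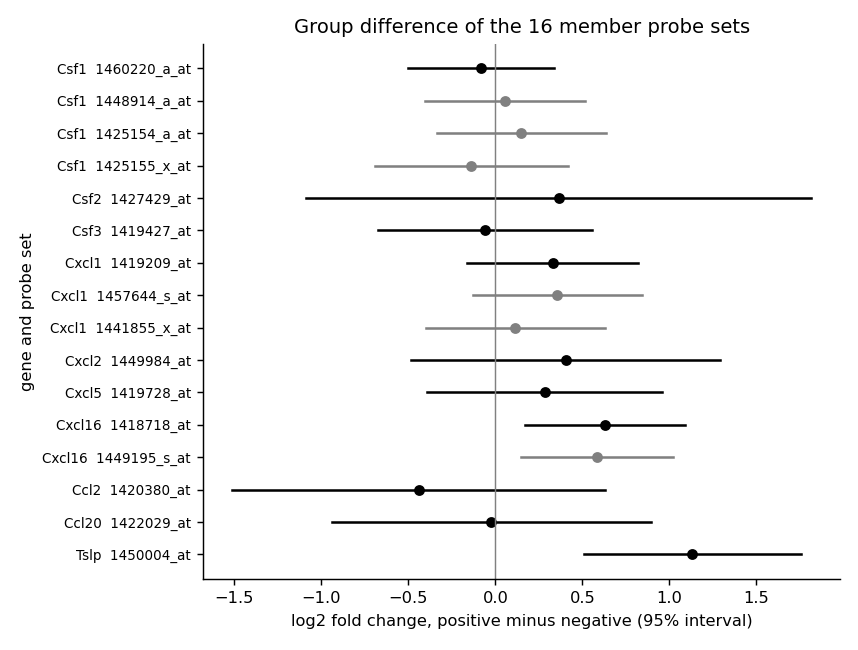
Log2 fold change, positive minus negative, of the 16 probe sets with 95% intervals from the fit over 27022 probe sets. Black marks the probe set tested for its gene and grey the others; the intervals of Tslp and of both Cxcl16 probe sets lie above 0 and the other 13 cross it.

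In a fit over single probe sets, none of the 16 passed an adjusted p of 0.05 (limma), where 0.0333% of all probe sets did. At an unadjusted p under 0.05, 3 of 16 were higher, the probe set of Tslp and both of Cxcl16, against 2.04% of all probe sets.

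The positive arrays differed from each other in these genes more than they did over all genes, with a median absolute difference of 0.63 against 0.26 on the log2 scale. Positive replicate 1 was above positive replicate 2 in 10 of 10 genes, against 49.1% of all genes. For Csf1 this difference was only 0.01. Other probe sets of Csf1 gave 672 and 735, 434 and 485, and 287 and 211 in positive replicates 1 and 2, so they did not share 1 order. Positive replicate 1 was the highest array for 7 of the 10 genes, Csf2, Cxcl1, Cxcl2, Cxcl5, Cxcl16, Ccl2 and Tslp, and for 19.0% of all genes. In 7 of 10 genes the positive arrays lay further apart than the group means did, against 64.2% of all genes; Csf1, Cxcl16 and Tslp were the others. For the negative arrays the median absolute difference was 0.34, against 0.24 over all genes, and negative replicate 1 was above negative replicate 2 in 7 of 10 genes, against 51.5% of all genes. Since 1 array carries each of these values, no test was made of them.

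**Figure D3:**
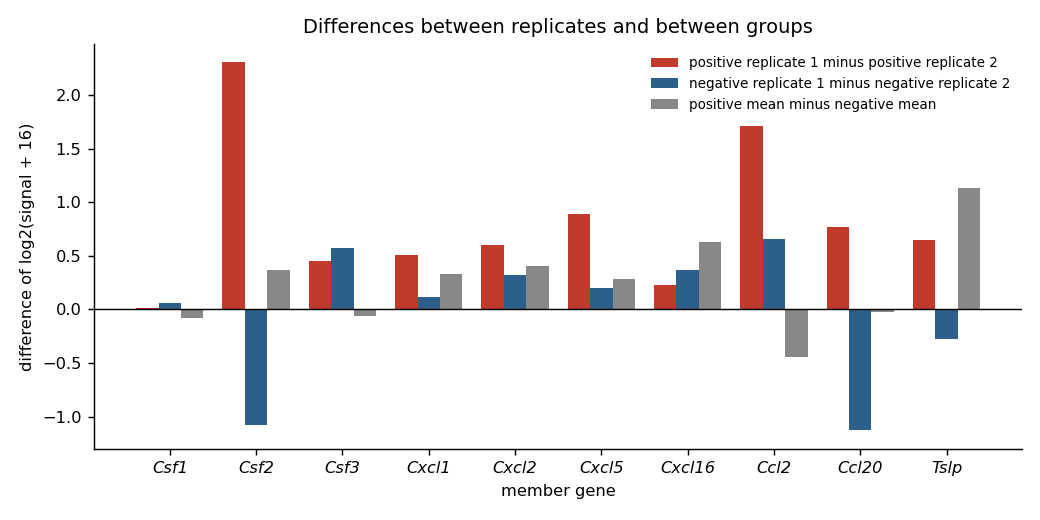
Bars give differences of log2(signal + 16) for each of the 10 genes: between the positive arrays (red), between the negative arrays (blue) and between the group means (grey). All red bars lie above 0, from 0.01 for Csf1 to 2.30 for Csf2, and the grey bar is longer than both others for Csf1, Cxcl16 and Tslp.

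Leaving out a single array turned the sign of Csf2, Csf3, Cxcl5, Ccl2 and Ccl20. Without positive replicate 1 the median log2 fold change of the 9 genes above the filter was -0.16. Above 0 lay 3 of these, Cxcl1, Cxcl16 and Tslp, against 55% of all genes. Without positive replicate 2 the median of 10 genes was 0.66, and 9 lay above 0, against 53.1% of all genes. With a negative array left out the medians were 0.30 (replicate 1) and 0.25 (replicate 2). Tslp, Cxcl16 and Cxcl1 were above 0 and Csf1 was below 0 whichever array was left out. The groups did not overlap in these genes, so leaving out an array could not turn their sign, apart from shifts by renormalization. Cxcl2 was above 0 in the 3 fits that held it. The fit that lost it was the one without positive replicate 1, its highest array.

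**Figure D4:**
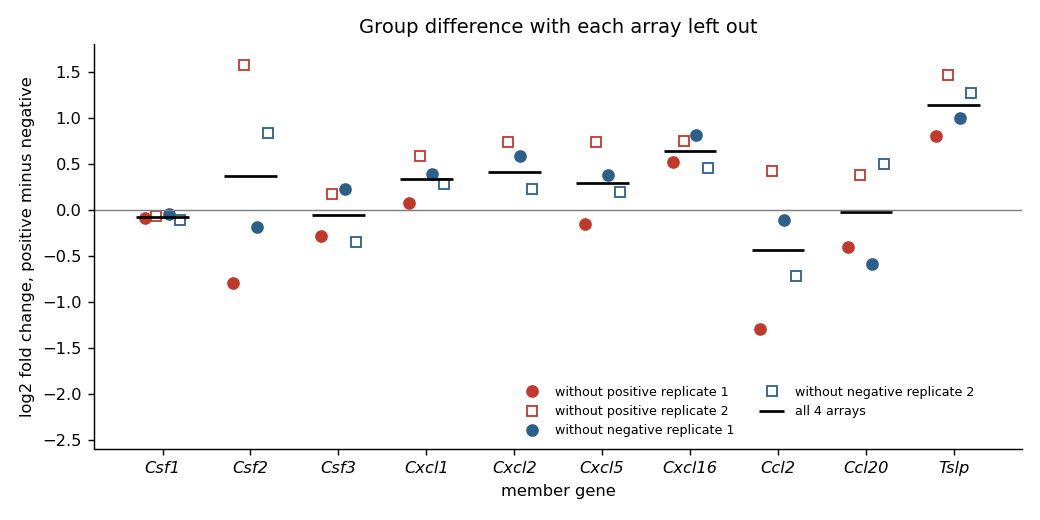
Log2 fold change, positive minus negative, of each gene with all 4 arrays (black line) and with 1 array left out (points). Csf2 runs from -0.80 to 1.57 and Ccl2 from -1.30 to 0.42, while Tslp stays between 0.80 and 1.46 and Csf1 between -0.11 and -0.05.

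Receptors of these factors were mostly near or below the filter level in the 4T1 samples. Of 11 receptors with a probe set, 4 passed the filter, and none was called by limma. Crlf2, the Tslp receptor chain, had signals of 268 and 223 in positive against 217 and 180 in negative arrays (log2 fold change 0.29 ± 0.23). Csf1r gave 86.5 and 140 against 77.0 and 68.4 (0.51 ± 0.29), and Ccr6, the Ccl20 receptor, gave 35.5 and 38.6 against 3.17 and 28.2 (0.86 ± 0.46). For Ccr2, the Ccl2 receptor, signals were 36.9 and 96.03 in positive against 9.47 and 7.80 in negative arrays. Its negative arrays were below the filter level, so its log2 fold change of 1.64 ± 0.43 (limma unadjusted p 0.00254, adjusted p 0.596) is no exact size. In all 4 receptors both positive arrays were above both negative arrays, an order that 18.5% of all genes had. Ccr2 and Ccr6 passed the filter on the mean of all arrays, while their negative means, 8.64 and 15.7, lay below it, so that for them this order is partly set by the filter. Csf2ra, Csf2rb, Csf2rb2, Csf3r, Cxcr2, Cxcr6 and Il7r did not pass, with mean signals between 3.84 (Cxcr2, positive) and 21.2 (Csf2rb, positive).

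Macrophage markers, which Csf1r also belongs to, were higher as a sum in both positive arrays. Their summed signal over 12 markers was 590 and 713 in positive against 496 and 465 in negative arrays. Above 0 lay 6 of the 7 that passed the filter, against 54.3% of all genes, with a median of 0.34. Cd14, Cd68, Adgre1 and Csf1r, or 4 of 7 against 18.5% of all genes, were higher without overlap, and the other 3 overlapped. None was called by limma. Mrc1 passed with a negative mean of 16.8, below the filter level, so its place above 0 is partly set by the filter. Cd14 gave 226 and 259 against 188 and 180, while Ptprc (1.55, 12.7, 0.825 and 2.05) and Itgam (5.88, 3.77, 1.95 and 0.775) were below the filter level in all 4 arrays. That sum was highest in positive replicate 2, and Cd14 was the largest part of it in every array. The part of these markers in the differences of Tslp and Cxcl16 was not tested.

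Decoy and scavenger receptors, which bind chemokines without the usual signalling, had 5 of 5 genes above the filter and none called. Ackr3 gave 1729 and 980 in positive against 1680 and 1869 in negative arrays, with a log2 fold change of -0.44 ± 0.24, the lowest of the list. Positive replicate 2 was the low array here, as it was for Ccl2. Ackr2, which clears CC chemokines, was the highest at 0.33 ± 0.43.

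Of 28 other chemokines on the array, 13 passed the filter, 12 of these lay above 0 and none was called by limma. Cxcl14 and Ccl28 passed with negative means of 14.7 and 17.5, below the filter level. For them, lying above 0 is partly set by the filter. The 13 had a median log2 fold change of 0.33. Above the median of all genes lay 12 of 13, both with quantile normalization and with no scaling. Ccl5, which attracts T cells and monocytes, had the highest value and the highest mean signal: 454 and 225 in positive against 201 and 114 in negative arrays, with no overlap (log2 fold change 1.01 ± 0.33, limma unadjusted p 0.0101, adjusted p 0.980). Like Tslp it was highest in positive replicate 1. Cxcl3, a further ligand of Cxcr2, was the lowest at -0.19 ± 0.37 and overlapped between the groups. Ppbp and Ccl7, the coding genes next to Cxcl5 and Ccl2, did not pass the filter.

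**Figure D5:**
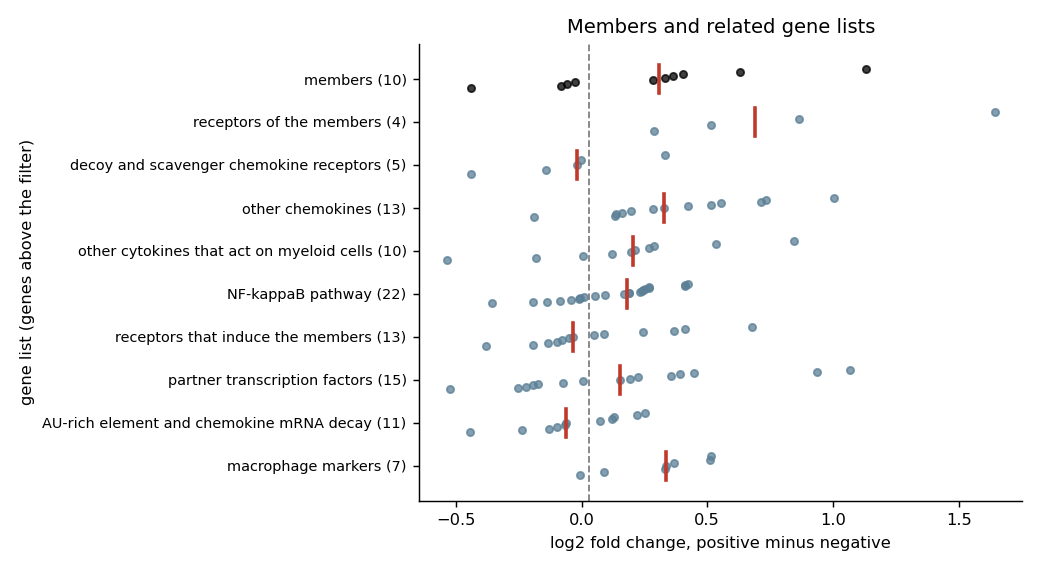
Log2 fold change, positive minus negative, of each gene above the filter in the 10 genes (black, top) and in related lists (blue), with the list's median in red and the median of all 11956 genes as a dashed line. The median of the 10 genes is 0.31 and that of the other chemokines 0.33. Cxcl2, Ccr2, Ccr6, Cxcl14, Ccl28, Cebpa and Mrc1 have negative means below the filter level.

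Among other cytokines that act on myeloid cells, 10 of 17 on the array passed the filter, 8 lay above 0 and none was called. Above the median of all genes lay 7 of 10, and 8 with no scaling. Il1a, an alarm cytokine that induces many chemokines, was the highest, with 128 and 74.7 in positive against 60.1 and 37.0 in negative arrays and a log2 fold change of 0.84 ± 0.33 (limma unadjusted p 0.0251, adjusted p 0.985). Here too positive replicate 1 was the highest array. Kitl, the stem cell factor, was the lowest at -0.54 ± 0.26. Mif, which had the highest signal of the list, differed by 0.0066 ± 0.13 (-0.02 with no scaling). Il6 and Tnf did not pass the filter.

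Genes of the NF-κB pathway, which induces many of the 10 factors, had 15 of 22 above 0, with a median of 0.18 and none called by limma. With no scaling between arrays, which lowered all genes together, 9 were above 0, but the number above the median of all genes was 14 of 22 in the main setting and 13 without scaling. Bcl3, an IκB-type cofactor, was the highest at 0.42 ± 0.32 and Birc3 the lowest at -0.36 ± 0.25. The inhibitor Nfkbia, the list's gene with the highest signal, gave 4414 and 3225 in positive against 5062 and 3414 in negative arrays. Replicate 1 was the higher in either group, and the groups overlapped.

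Receptors and adaptors of inducing signals had 6 of 13 above 0, a median of -0.03 and none called. Above the median of all genes lay 6 of 13, and 5 with no scaling. Tlr3, a sensor of double-stranded RNA, was the highest with 477 and 413 in positive against 272 and 270 in negative arrays, a log2 fold change of 0.68 ± 0.22 (limma unadjusted p 0.00830, adjusted p 0.919). Its groups were apart by more than its replicates were. The interleukin receptor Il1r1 was the lowest at -0.38 ± 0.30, and the kinase Irak1, with the highest signal of the list, had -0.08 ± 0.21.

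Transcription factors that act with NF-κB had 9 of 15 above 0 and none called. Above the median of all genes lay 8 of 15, also with no scaling. Cebpa had the highest value, 1.07 ± 0.42, but its negative mean of 13.3 lay below the filter level, which it passed through its positive arrays (55.3 and 34.3), so neither the size nor the rank is exact. Cebpb, a regulator of Csf3 and other inflammatory genes, was the lowest: it gave 1419 and 1435 in positive against 1560 and 2720 in negative arrays, a log2 fold change of -0.53 ± 0.24 (limma unadjusted p 0.0467, adjusted p 0.985). Negative replicate 2 stood apart from the other 3 arrays. Ets1 had the highest mean signal of this list and a log2 fold change of -0.17 ± 0.22.

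Regulators of the decay of chemokine and cytokine mRNA had 5 of 11 above 0, a median of -0.06 and none called. The same number, 5 of 11, lay above the median of all genes with and without scaling. Zfp36, which binds AU-rich elements and shortens the life of such mRNAs, was the highest at 0.25 ± 0.23. Tia1, a translational silencer that binds the same elements, was the lowest at -0.44 ± 0.20 (limma unadjusted p 0.0456, adjusted p 0.985). Hnrnpd, with the highest signal of the list, had -0.06 ± 0.18.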

How the data were processed

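Total RNA of 2 CD44v8-10-positive and 2 CD44v8-10-negative 4T1 samples, grouped by their labels, was measured on 4 one-colour arrays. The deposited values were linear intensities, 1 per probe set and array; the submitters' processing notes name GCOS without a role, and the summary method, background correction and scaling are not stated in any source used. The array holds 45101 probe sets. A single gene symbol was paired with 34945, several with 932 and none with 9160, and 64 are controls; names came from the platform annotation, which can be old, and 34741 matched RefSeq by gene number, with 0 symbols changed. Intensities were quantile normalized and transformed as log2(value + 16). Controls were removed, then probe sets with a mean below the 40th percentile (signal 19.4), which left 27022. The probe set with the highest mean stood for a gene. Groups were compared over 11956 genes with limma 3.58.1 in R 4.3.3 (eBayes, prior variance following intensity, Benjamini-Hochberg adjustment of two-sided p-values, threshold 0.05, 12.2 degrees of freedom). The procedure was run on data simulated from its own fitted prior, which cannot show how well that prior suits these arrays. All 10 members were named; of other lists, the highest-signal, highest and lowest genes, and receptors by name. Epcam, Cd14, Ptprc, Itgam, Il6, Tnf, Ppbp and Ccl7 were singled out after their values were seen. The members and lists were chosen with earlier results of these data known. The number of arrays limits the precision. Replicate numbers were not used as pairs, since the labels do not say what they mark. Alternatives were other scalings, pseudocounts, filters, probe set rules and priors, the replicate block and leaving out each array.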

Additional observations from a re-analysis of the deposited data

How the results depend on the processing

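Limma called 0 of the 10 genes, or 0 of 16 probe sets, under every alternative. At an unadjusted limma p under 0.05 the main fit had 2 of the 10, median centring 1 and no scaling 0. In the main fit 2.68% of all genes were higher and 1.76% lower at that level. These shares were not taken for the other scalings. The count of all genes called, 9, was 25 with arrays centred on their medians, 3 with no scaling between arrays, 3 with no filter and 2 without the intensity trend, and 6 to 16 with 1 array left out. With the replicate number as a block 18 genes were called, 15 higher and 3 lower, and again 0 of the 10; the adjusted p of Tslp was then 0.105 and that of Cxcl16 0.317. The labels do not show that the numbers pair the samples, and with 2 pairs their correlation (0.116) cannot either. Alternatives that changed only the filter, the prior, the intensity trend or the block kept each log2 fold change of the main fit. So did leaving out less specific probe sets and fitting each probe set on its own. In those fits no sign could turn, so part of the following agreement was fixed in advance. Of 176 gene-level values under alternatives, 168 had the direction and side of the threshold of the main fit. The other sign was found in 8, each with 1 array left out. The values then ran from -0.80 to 1.57 for Csf2, -0.35 to 0.23 for Csf3, -0.16 to 0.73 for Cxcl5, -1.30 to 0.42 for Ccl2 and -0.60 to 0.50 for Ccl20. Fewer arrays enter these fits, and what sets arrays apart was not tested. Csf2, Cxcl2 and Ccl20 did not pass the filter at the 60th percentile, nor Cxcl2 the main filter without positive replicate 1, so they have no value there. Array number and, for Csf2 and Cxcl2, signals near the filter level limit what can be read.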
